A study of Mus musculus with 3 samples.

Results

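Fibroblasts and related stromal cells build the extracellular matrix, and 10 genes of that matrix and of the cells that make it were followed here in RNAseq of sorted immune cells from mice bearing kidney tumors. The genes were Col1a1, Col1a2, Col3a1, Col4a1, Col6a1, Sparc, Dcn, Lum, Pdgfrb and Fbn1, chosen by name out of the 36835 genes with a level. Each gene level was the sum of FPKM (fragments of a transcript scaled to its length and to the depth of the library) over the gene's Ensembl transcripts, with 1 row kept for each transcript, the first that had a value in all 3 libraries. All 10 genes were found, through 36 of their 45 rows in the table.

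The study asked whether Foxp3 is expressed by macrophages in tumors formed by Renca, a BALB/c renal carcinoma cell line, injected into the kidney. The labels name the line as Renca, and the study names the cells injected for the RNAseq as Renca Ch+ L+, the line with Cherry and luciferase. BALB/C mice gave 1 library each of type-1 macrophages (M1), type-2 macrophages (M2) and CD4 T cells (CD4), and no genotype or drug set the groups apart. The 3 libraries came from 30 tumors and 4 spleens in all, so that animals were pooled, with spleen given as the source of the CD4 T cells in one label and the tumor in another. Day 16 after inoculation stands in the growth protocol of the labels, while day 14 stands in the field on origin. Cells were sorted with antibodies to CD45.2, TCRβ, CD4, F4/80 and CD11b, so that the gates select leukocytes, and fibroblasts do not carry CD45. With 1 library per cell subset there was no replicate check, and no difference below has a p-value.

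The names of 2 libraries go against their marker genes. Cd3e, a chain of the T cell receptor complex, was at 0.131 FPKM in the library labelled M1, 126 in M2 and 0.141 in CD4, and Trbc1, a constant region of that receptor, at 0.400, 434 and 0.329. Csf1r, the macrophage growth factor receptor, stood at 279, 15.3 and 519 FPKM, Emr1 (F4/80) at 45.3, 9.16 and 215, and Itgam (CD11b) at 299, 14.7 and 201. All 9 T cell markers found were highest in the library labelled M2, and all 10 macrophage markers were lowest there. The names are therefore kept as labels, and each direction below rests on them. Read depth, estimated from the FPKM that 1 fragment gives, was about 61500000 fragments for the library labelled M1, 60000000 for M2 and 72700000 for CD4. The estimate for CD4 depended on the transcript lengths used, as given under the processing.

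Collagens are proteins of 3 chains wound around each other. Types I and III form fibrils that give tissue its strength, type IV forms the sheet of the basement membrane, and type VI forms beaded filaments. The wound stretch repeats glycine at a spacing of 3 residues, and glycine has the codon GGN. Coding sequences of the annotation were searched for the longest in-frame run with GGN at each position 3 codons on. The run held 338 such codons in Col1a1, 339 in Col1a2 and 344 in Col3a1, which was 69.7%, 74.1% and 70.4% of all codons when the codons between them are included. In Col6a1 it held 87 and in Col4a1 40 GGN codons, in which interruptions break the repeat. The 5 other genes had runs of 1 to 4, and 0.368% of 55414 coding transcripts had a run of 10 or more. The first 27 bases of the longest run are shown for Col1a1 and Col3a1, because they show the codon spacing that the collagens among the members share. The run was found by codons alone, so its start need not be the start of the wound stretch. Capitals mark the GGN codons that make up the run, and other GGN codons between them stay in lower case.
Col1a1: GGCcccatgGGTccttctGGTcctcgt
Col3a1: GGAgtgggaGGAatgggtGGCtatccg
In build NCBIM37 (mm9) the Col1a1 stretch is coding sequence of exons 6 and 7 on the forward strand of chromosome 11, from 94800765 to 94800773 and from 94801011 to 94801028. That of Col3a1 lies in exon 5 on the forward strand of chromosome 1, from 45380607 to 45380633.

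Over the 10 genes, levels ran from 0.0464 to 21.9 FPKM in the library labelled M1, from 0.0819 to 60.6 in that labelled M2, and from 0 to 32.0 in that labelled CD4. Sparc alone made up 65.4%, 76.7% and 43.7% of the summed level in these libraries. Without Sparc the sums were 11.6, 18.4 and 41.3 FPKM. In bulk RNA, fewer cells of a type and less RNA per cell cannot be told apart, and strand is not given, so that reads of a gene and an antisense partner cannot be told apart either. The highest level was in the library labelled CD4 for 7 genes, in M2 for 2 genes (Sparc and Col6a1) and in M1 for 1 gene (Pdgfrb). How often each library was the highest over all genes was not counted.

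**Figure D1:**
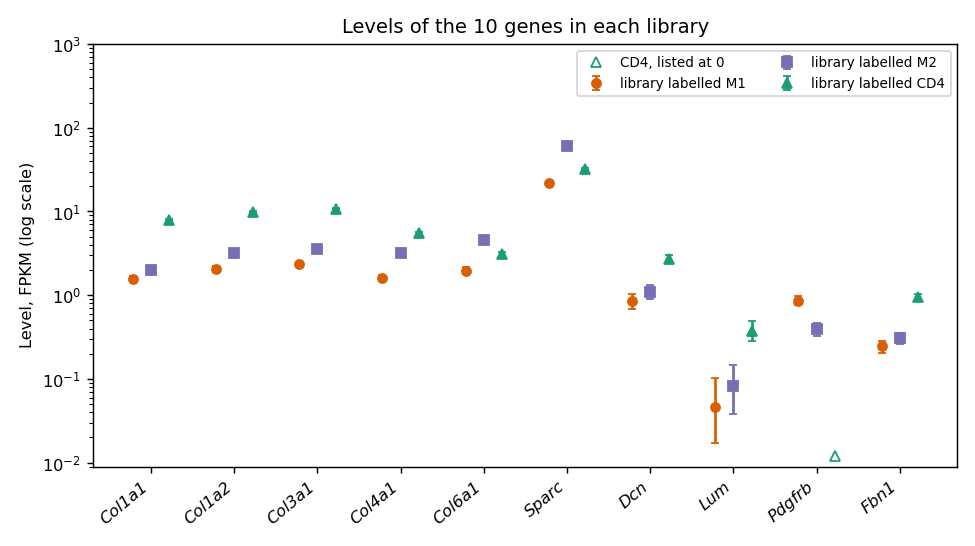
FPKM of each of the 10 genes (log scale) in the libraries labelled M1, M2 and CD4, 1 library each; bars are 95% Poisson intervals of the approximate fragment counts and cover counting error only. Col1a1, Col1a2 and Col3a1 are at 7.96 to 10.8 FPKM in the library labelled CD4 and at 1.58 to 3.59 in the others, Sparc is highest in M2, and the open symbol marks Pdgfrb, listed at 0 in CD4.

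The 3 fibrillar collagen genes had the same order of libraries. Col1a1 encodes the α1 chain of type I collagen and lies on chromosome 11 from 94797538 to 94814356. It was at 1.58 FPKM (95% counting interval 1.45 to 1.71) in the library labelled M1, 2.02 (1.87 to 2.18) in M2 and 7.96 (7.70 to 8.23) in CD4. About 575, 675 and 3433 fragments stood behind these levels. The 3 intervals were apart, and the library labelled CD4 was 5.05 times that labelled M1.

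Col1a2, on chromosome 6 from 4454814 to 4491543, encodes the α2 chain of the same protein. Its levels were 2.07 FPKM in the library labelled M1, 3.15 in M2 and 9.87 in CD4. Col3a1 encodes the chain of type III collagen, which forms finer fibrils with type I, and lies on chromosome 1 from 45368383 to 45406551. It was at 2.34, 3.59 and 10.8 FPKM. The CD4 to M1 ratios of the 3 genes were 5.05, 4.77 and 4.62, with counting intervals that overlapped. The ratios of M2 to M1 were 1.28, 1.52 and 1.53.

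Of the chains of type I collagen, Col1a1 was the lower in each library. It was at 0.763 times the FPKM of Col1a2 (counting interval 0.681 to 0.854) in the library labelled M1, 0.642 (0.581 to 0.709) in M2 and 0.807 (0.770 to 0.846) in CD4. The interval in M2 ended below that in CD4 and overlapped that in M1. The ratio of Col3a1 to Col1a1 was 1.49, 1.77 and 1.36. Summed over all rows, which adds a second row of Col1a1 in the library labelled M2, its level there was 2.93 FPKM. Col1a2 and Col3a1 stayed at 3.15 and 3.59 FPKM there. With these levels the ratio of Col1a1 to Col1a2 is highest in M2 and that of Col3a1 to Col1a1 lowest. The place of M2 in both orders thus depends on the row kept.

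Col4a1 encodes a chain of type IV collagen, the collagen of basement membranes, on chromosome 8 from 11198423 to 11312826. It was at 1.61 FPKM in the library labelled M1, 3.20 in M2 and 5.47 in CD4, so that M2 lay between the others. Its partner chain Col4a2, the neighbouring gene, was at 0.913, 2.05 and 3.14 FPKM. Col4a1 was thus at 1.77, 1.56 and 1.74 times Col4a2, with intervals that overlapped in all 3 libraries.

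Col6a1, on chromosome 10 from 76171537 to 76188913, encodes a chain of the beaded filaments of type VI collagen. Here the order differed, with 1.97 FPKM in the library labelled M1, 4.52 in M2 and 3.11 in CD4. Its partner chains Col6a2 and Col6a3 were instead highest in CD4. Col6a2 was at 0.333, 0.625 and 1.07 FPKM, and Col6a3 at 0.438, 0.676 and 1.38. The ratio of Col6a1 to Col6a2 was 5.90 (4.66 to 7.54) in the library labelled M1, 7.24 (6.09 to 8.66) in M2 and 2.91 (2.55 to 3.32) in CD4. All of the Col6a1 level was given to the variant Col6a1-201, while the variant with the longest coding sequence, Col6a1-001, was listed at 0 in every library. These 2 variants have 3976 and 4100 bases, and how fragments were shared between them is the model's estimate.

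Sparc encodes a secreted glycoprotein that binds collagen and calcium, and lies on the reverse strand of chromosome 11 from 55208002 to 55233582. It had the highest level of the 10 genes in each library, at 21.9 FPKM (21.1 to 22.7) in that labelled M1, 60.6 (59.2 to 61.9) in M2 and 32.0 (31.2 to 32.9) in CD4. It stood above 83.9%, 95.8% and 89.7% of the genes with a level above 0. The variant Sparc-002 carried 75.5%, 72.5% and 69.8% of the level and Sparc-001 the rest.

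The size of the Sparc difference depended on the rows. Sparc-002 had a further row with a value in the library labelled M1 alone, at 10.96 FPKM, and another in CD4 alone, at 16.6. With all rows summed Sparc was at 32.9, 60.6 and 48.6 FPKM. With the first row that had a value in any library it was at 16.3, 16.7 and 9.68 FPKM. The library labelled M2 was the highest under each rule, and M1 was below CD4 under the first and second rule and above it under the third.

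Dcn and Lum encode decorin and lumican, small leucine-rich proteoglycans that bind collagen fibrils and set their spacing, and are neighbours on chromosome 10, Dcn from 96942245 to 96980777 and Lum from 97028135 to 97035337. Dcn was at 0.853 FPKM (0.683 to 1.04) in the library labelled M1, 1.10 (0.907 to 1.32) in M2 and 2.72 (2.44 to 3.03) in CD4. The intervals of M1 and M2 overlapped, while that of CD4 lay above both. Lum was the lowest of the 10 genes in M1 and M2, at 0.0464 and 0.0819 FPKM, and at 0.378 in CD4. About 6, 10 and 57 fragments stood behind these values. M1 and M2 cannot be told apart at this depth, since the ratio of M2 to M1 was 1.76 with an interval of 0.581 to 5.91.

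Fbn1 encodes fibrillin-1, the main protein of the microfibrils around which elastic fibres form, on chromosome 2 from 125126330 to 125333729. It was at 0.245 FPKM in the library labelled M1, 0.307 in M2 and 0.963 in CD4. The ratio of CD4 to M1 was 3.93 (3.28 to 4.72), beside 4.62 to 5.05 for the fibrillar collagens. The neighbours M1 and M2 overlapped in their intervals, 0.206 to 0.287 and 0.263 to 0.354. The interval of their ratio, M2 to M1, lay just above 1, at 1.25 (1.001 to 1.565).

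Pdgfrb encodes a receptor for platelet-derived growth factor that marks pericytes and many fibroblasts, on chromosome 18 from 61204804 to 61244715. Its variant Pdgfrb-001 was at 0.863 FPKM in the library labelled M1 and 0.393 in M2, and was listed at 0 in CD4. The variant Pdgfrb-002, of 5423 bases beside 5407, was listed at 0 in the row kept and had 2 further rows, at 0.2503 FPKM in M2 alone and at 1.44 in CD4 alone. Summed over all rows Pdgfrb was at 0.863 FPKM in M1, 0.643 in M2 and 1.44 in CD4, so that the library with the lowest level became the one with the highest. No fold is given against the 0 in CD4.

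**Figure D2:**
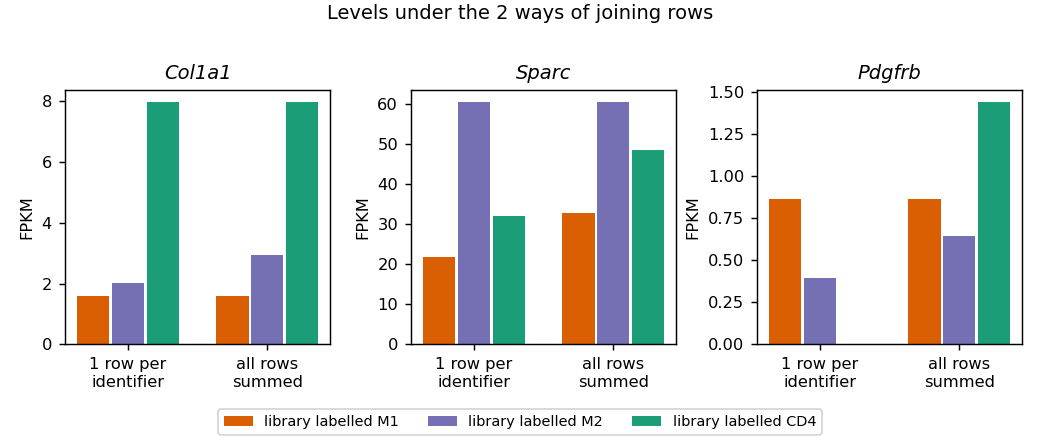
FPKM of Col1a1, Sparc and Pdgfrb in the libraries labelled M1, M2 and CD4, with 1 row kept per transcript identifier (left of each panel) and with all rows summed (right). Pdgfrb in CD4 goes from 0 to 1.44 FPKM and Sparc in M1 from 21.9 to 32.9, while the order for Col1a1 is the same.

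Comparisons between libraries used log2(FPKM + 1), on which differences of genes under about 1 FPKM come out too small, and a difference of at least 1 was taken as past 2-fold. A mean of at least 1 FPKM over the libraries was reached by 11859 genes and by 7 of the 10 members. Lum, Pdgfrb and Fbn1 were below it. The mean includes the library where a gene is high, so a gene can reach the minimum through that library alone. This holds for the members and for all genes. Between the libraries labelled CD4 and M1, 5 of the 10 members were past 2-fold higher and 0 lower, against 6.14% higher, 6.43% lower and 12.6% in either direction of the 11859 genes past the minimum. All 5 were among the 7 members past the minimum. These were Col1a2 at a log2 difference of 1.83, Col3a1 at 1.82, Col1a1 at 1.80, Col4a1 at 1.31 and Dcn at 1.01. Dcn lay just past the limit. The median difference was 0.83 over the 10 members beside 0 over all 36835 genes, and 1.31 over the 7 members past the minimum beside -0.01 over all genes past it. Most of the 36835 genes were below the minimum, so their median lies near 0 on this scale in each comparison. The genes past the minimum are the closer comparison.

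Between the libraries labelled M2 and M1, 1 member was past 2-fold higher, Sparc at 1.43, and 0 were lower, against 15.5% higher, 14.4% lower and 29.9% in either direction of the genes past the minimum. Col6a1 followed at 0.90 and Col4a1 at 0.68, short of the limit. The median was 0.33 over the 10 members beside 0 over all 36835 genes, and 0.46 over the 7 beside 0.07 past the minimum. Of M2 against CD4, 3 members were past 2-fold lower, against 15.2% lower, 15.9% higher and 31.1% in either direction of the genes past the minimum, and 0 were higher. They were Col1a1 at -1.57, Col1a2 at -1.39 and Col3a1 at -1.36, while Sparc was at 0.90 and Col6a1 at 0.43. The median was -0.61 over the 10 members beside 0 over all 36835 genes, and -0.83 over the 7 beside 0.09 past the minimum. With each library rescaled to the same total, the median of all genes past the minimum became 0.28 for M2 against M1 and 0.27 for M2 against CD4. The minimum was then reached by 9 members and by 13625 genes in all. In M2, 2 members were higher and 3 lower than in CD4, beside 3165 and 1954 of the 13625 genes. In CD4, 6 members were higher and 1 lower than in M1, beside 1073 and 1042. The 1 lower was Pdgfrb, whose 0 in CD4 rests on the row kept and was 1.44 FPKM with all rows summed. Each library enters 2 of these comparisons, so they are not independent of each other.

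**Figure D3:**
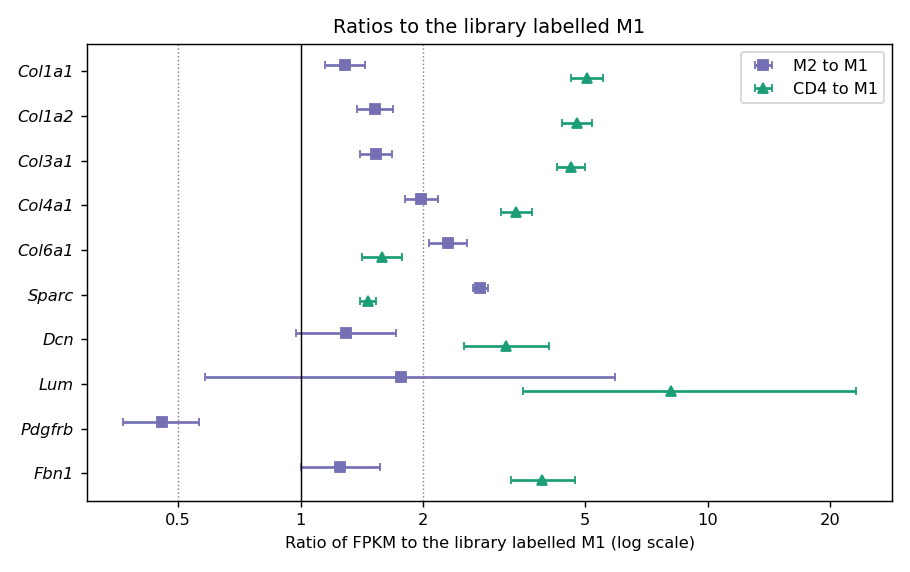
Ratio of FPKM in the libraries labelled M2 (squares) and CD4 (triangles) to that labelled M1, on a log scale, with 95% counting intervals; dotted lines are at 0.5 and 2. The CD4 ratio is 4.62 to 5.05 for Col1a1, Col1a2 and Col3a1 and 1.46 for Sparc, whose M2 ratio is 2.76; Pdgfrb has no CD4 point because it is listed at 0.

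Expressed as shares of the level summed over the 3 libraries, the members other than Pdgfrb had their largest share in the library labelled CD4 or in that labelled M2. The library labelled CD4 held 68.9% of Col1a1, 65.4% of Col1a2, 64.6% of Col3a1, 63.6% of Fbn1, 74.7% of Lum, 58.2% of Dcn and 53.2% of Col4a1. It held 28.0% of Sparc and 32.4% of Col6a1, for which the library labelled M2 held 52.9% and 47.1%. Col1a2 and Col3a1 were the closest pair, with no share differing by more than 0.830 percentage points, whereas Col1a1 and Sparc differed by 40.9.

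Genes outside the 10 were ranked by the largest difference in these shares, over 3 libraries and among 5720 genes with a mean of at least 10 FPKM. The closest to Sparc was Cdh16, the kidney-specific cadherin, at 33.4 FPKM in the library labelled M1, 87.8 in M2 and 46.0 in CD4, with a largest difference of 0.859 points. Klf3, Etnk1, Ttc3 and Ptp4a3 came next, and 49 genes lay within 3 points. Near Col1a1 there were 4 genes within 3 points, and Itm2b, Pdgfc, Rps27a-ps2 and Pmp22 were among the 5 closest. Closest to Col3a1 was Igf1, a growth factor, at 5.06, 6.59 and 19.97 FPKM, and C330006A16Rik, Pdgfc and Pmp22 were also among the 5 closest. For Col4a1 the closest were Gm6304, Ccny, Ncstn, Abr and Rnase4, and 1 gene lay within 3 points. Rps27a-ps2 is named as a pseudogene, whose reads can be shared with its parent gene. A likeness over 3 libraries is a description of these values.

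**Figure D4:**
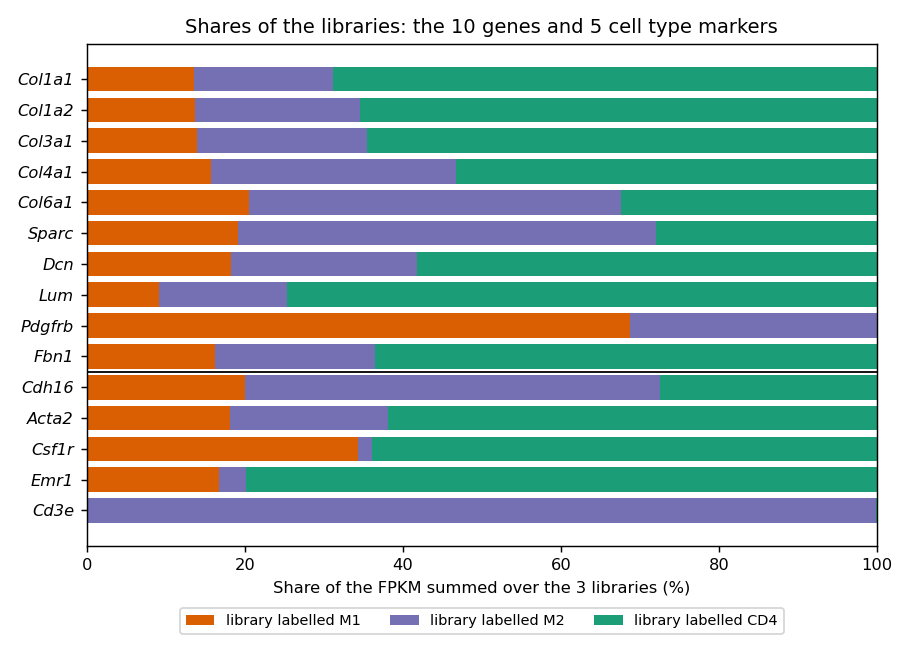
Share of the FPKM summed over the libraries labelled M1, M2 and CD4 (%), for the 10 genes above the line and 5 markers below it (Cdh16 of kidney epithelium, Acta2 of smooth muscle and pericytes, Csf1r and Emr1 of macrophages, Cd3e of T cells). Sparc and Cdh16 have 52.9% and 52.5% in M2, and Col1a1 has 68.9% in CD4.

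Marker sums by cell type differed between the libraries. Those of T cell markers were 1.60, 1356 and 2.04 FPKM in the libraries labelled M1, M2 and CD4, and those of macrophage markers 2279, 314 and 6046. The 12 kidney epithelial markers summed to 73.9 FPKM in the library labelled M1, 199 in M2 and 95.9 in CD4. Of the 12, 6 were highest in M2 and 5 in CD4. Cdh16, Krt8 and Krt18 held most of the sum in M2, at 87.8, 54.6 and 35.8 FPKM. Umod, which encodes uromodulin, was listed at 0 in M1 and was at 4.42 and 2.24 FPKM in M2 and CD4. Rows left out were listed for the 10 members only. A 0 of another gene, here and below, can therefore rest on the row kept. Slc12a1 was among the 5 highest in CD4, at 0.196, 0.519 and 1.47 FPKM. The 10 pericyte and smooth muscle markers summed to 2.95, 4.87 and 10.5 FPKM, with 7 of 10 highest in CD4. Among them Acta2, smooth muscle actin, was at 1.51, 1.67 and 5.16 FPKM, Mcam at 0.299, 0.952 and 1.76, and Tagln was listed at 0 in all 3.

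The 12 fibroblast markers summed to 21.0, 14.8 and 13.4 FPKM in the libraries labelled M1, M2 and CD4. Pdgfra, a defining fibroblast receptor, was at 0.0259, 0.0683 and 0.130 FPKM. Fap, fibroblast activation protein, was listed at 0 in M1 and was at 0.188 in M2 and 2.89 in CD4. Pi16 held 13.2 of the 21.0 FPKM in M1, and Twist2 was highest in M2, at 8.12. Endothelial markers summed to 18.6, 45.8 and 24.3 FPKM over 12 genes, 35.0 of which in M2 was Pecam1, a marker that leukocytes also carry, and Vwf was listed at 0 in M2. The part of these other cells in the levels of the 10 genes was not tested.

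The other matrix genes were taken from lists of collagens, their enzymes and other matrix proteins, joined with the fibroblast markers. Of 124 genes 123 were found, of which 56 were highest in the library labelled CD4, 42 in M2 and 19 in M1, while 6 were listed at 0 in all. These counts and 0 values rest on the rows kept, and left-out rows of these genes were not listed. No such count was made over all genes. Of the 123, 51 reached a mean of at least 1 FPKM. Of these, 9 were past 2-fold higher and 5 lower in CD4 than in M1, beside 6.14% and 6.43% of all genes past the minimum. In M2, 12 were higher and 11 lower than in M1, beside 15.5% and 14.4%, and 10 were higher and 14 lower than in CD4, beside 15.9% and 15.2%. Among the 9 higher in CD4 than in M1, Col5a2, Col14a1, Fap and Leprel2 were below 1 FPKM in M1 and M2. They reached the minimum through CD4, as Col11a2 and Ltbp3 did through M2 and Vcan through M1. The balance depended on the setting. With all rows summed, 60 reached the minimum. Of these, 10 were higher and 8 lower in CD4 than in M1, beside 790 and 826 of 13181 genes. With the first row that had a value in any library, 50 reached it. Of those 50, 8 were higher and 8 lower in CD4 than in M1, beside 587 and 1121 of 11535 genes. Rescaled to a total, 67 reached the minimum, of which 28 were higher and 12 lower in M2 than in M1. Of all 13625 genes past it then, 3198 were higher and 1819 lower. Of the 67, 17 were higher and 14 lower in M2 than in CD4, beside 3165 and 1954 of the 13625. With a mean of at least 10 FPKM, reached by 20, 0 were higher and 3 lower in CD4 than in M1. Of all 5721 genes with that mean, 282 were higher and 305 lower. The medians over these 51 genes were 0.16, 0.27 and -0.17, beside -0.01, 0.07 and 0.09 over all genes past the minimum.

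**Figure D5:**
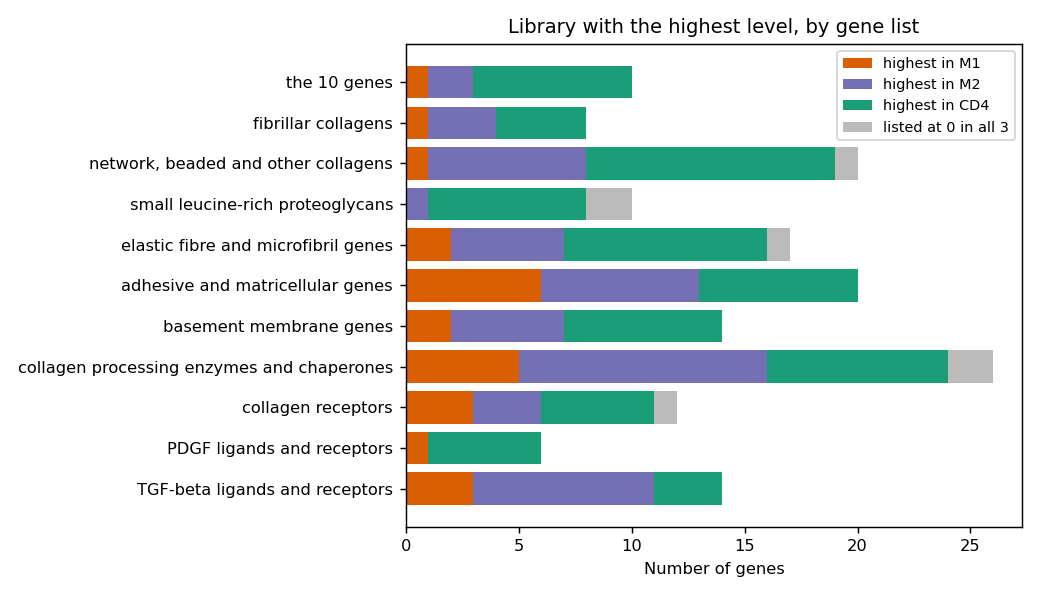
Number of genes of each list with their highest FPKM in the library labelled M1, M2 or CD4, or listed at 0 in all 3. Of the 10 genes, 7 are highest in CD4. Of 10 small leucine-rich proteoglycans 7 are highest in CD4, and of 26 collagen processing genes 11 are highest in M2. No such count was made over all genes.

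Several of these genes had the profile of the fibrillar collagens. Among the collagens Col5a2, a minor chain of fibrils, was at 0.346 FPKM in the library labelled M1, 0.559 in M2 and 2.16 in CD4. Col5a3 of the same collagen type had this order too, at 0.0982, 0.245 and 0.437 FPKM. Col5a1 had the opposite order, at 0.780, 0.484 and 0.378 FPKM. Col14a1, which binds to the surface of fibrils, was listed at 0 in M1 and was at 0.454 in M2 and 8.83 in CD4. Biglycan (Bgn), a proteoglycan related to decorin, was at 1.72, 2.05 and 6.48 FPKM, and Dcn stood at 0.497, 0.538 and 0.420 times its level, with intervals that overlapped. Mgp, matrix Gla protein, was at 1.73, 2.03 and 5.91 FPKM, and Nid2, a basement membrane protein, at 2.85, 3.33 and 11.8. In Col5a2, Col14a1, Bgn, Mgp and Nid2 the library labelled CD4 was highest and M1 lowest, as in the 7 members named above.

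Other genes, like Sparc, were highest in the library labelled M2. Col18a1, a basement membrane collagen, was at 19.0 FPKM in the library labelled M1, 47.7 in M2 and 21.6 in CD4. Sparc was at 1.15, 1.27 and 1.49 times the level of Col18a1, with counting intervals that were apart. These ratios rest on the rows kept, since Sparc was at 32.9, 60.6 and 48.6 FPKM with all rows summed. Fbln1, fibulin-1, was at 22.5, 54.1 and 24.0 FPKM, and Lama5, a laminin chain, at 3.67, 8.30 and 3.92. Col12a1, at 3.16, 6.81 and 2.11 FPKM, was likewise highest in M2. Col11a2 was at 0.134 and 3.67 FPKM in M1 and M2 and was listed at 0 in CD4, and Ltbp3, which binds latent TGF-β, was at 5.45 in M2 and listed at 0 in the others. The 0 values of Col11a2 and Ltbp3 can rest on the row kept.

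A further group of matrix genes was highest in the library labelled M1 or CD4. Tgfbi, a secreted protein that binds collagen, was at 460 FPKM in the library labelled M1, 14.7 in M2 and 179 in CD4, and Emilin2 at 49.7, 1.30 and 33.5. Spp1, osteopontin, was at 1182, 652 and 761 FPKM, and Vcan, versican, was at 12.2 and 0.395 in M1 and M2 and listed at 0 in CD4. Emilin1 was at 9.28, 1.18 and 19.2 FPKM, Lamc1 at 10.5, 12.9 and 14.1, and Agrn at 11.9 in M1, listed at 0 in M2 and at 7.60 in CD4. The 0 values of Vcan and Agrn can rest on the row kept. For Tgfbi, Emilin2, Spp1, Vcan and Agrn the library labelled M1 was highest, whereas it was lowest for Col1a1.

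Of the 26 genes of collagen processing found, 15 reached the minimum. P4hb, a subunit of the enzyme that hydroxylates proline and a general folding enzyme, was at 369 FPKM in the library labelled M1, 135 in M2 and 280 in CD4. Plod3, a lysyl hydroxylase, was at 70.4, 21.5 and 64.1. Leprel1, a prolyl 3-hydroxylase, was at 0.811, 4.80 and 3.10 FPKM. Past 2-fold were 2 higher and 0 lower in CD4 than in M1 (6.14% and 6.43% of all genes past the minimum), 4 higher and 3 lower in M2 than in M1 (15.5% and 14.4%), and 1 higher and 3 lower in M2 than in CD4 (15.9% and 15.2%).

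Among receptors for collagen, Mrc1, the mannose receptor, which takes up collagen and marks macrophages, was at 215 FPKM in the library labelled M1, 19.5 in M2 and 649 in CD4. Ddr1, a collagen-activated kinase of epithelial cells, was at 2.24, 8.35 and 3.07 FPKM. Of the 6 receptors with a mean of at least 1 FPKM, 2 were past 2-fold higher and 1 lower in CD4 than in M1, 1 higher and 2 lower in M2 than in M1, and 1 higher and 3 lower in M2 than in CD4. The shares of all genes past the minimum were, in that order, 6.14% and 6.43%, 15.5% and 14.4%, and 15.9% and 15.2%.

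The ligands of the PDGF receptors were also followed, since Pdgfrb is one of these receptors. Pdgfc was at 4.04 FPKM in the library labelled M1, 6.06 in M2 and 20.6 in CD4, and was among the 5 genes closest to Col1a1 and to Col3a1. Pdgfb, the main ligand of Pdgfrb, was at 5.96, 0.813 and 4.88 FPKM. Of the 3 genes of this list past the minimum, 1 (Pdgfc) was past 2-fold higher in CD4 than in M1 and 0 were lower, beside 6.14% and 6.43% of all genes past the minimum. In M2, 0 were higher and 1 lower than in M1, beside 15.5% and 14.4%, and 0 higher and 2 lower than in CD4, beside 15.9% and 15.2%.

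TGF-β induces collagen genes in fibroblasts. Tgfb1 was at 94.9 FPKM in the library labelled M1, 35.1 in M2 and 82.0 in CD4. The coreceptor Tgfbr3 was at 0.116, 9.97 and 0.162 FPKM, the inhibitor Smad7 at 6.38, 24.3 and 2.94, and the receptor Acvrl1 at 13.1, 0.863 and 10.9. Of the 13 genes of this list past the minimum, 0 were past 2-fold in either direction between CD4 and M1, beside 12.6% of all genes past the minimum. In M2, 4 were higher and 2 lower than in M1, beside 15.5% and 14.4%, and 2 higher and 3 lower than in CD4, beside 15.9% and 15.2%.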

How the data were processed

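After quality trimming, the authors aligned paired-end reads by Bowtie and TopHat on mm9, the mouse build NCBIM37. Cufflinks, guided by Ensembl models, gave transcript levels, and the deposited values are these FPKM in a single table. Some transcripts have several rows, and a dash stands where a library has no value. How libraries were joined and whether strand was used are not given in the sources used here. No column of another sample was present (0).

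Of 90430 transcript identifiers, 97.6% were found in GENCODE models of NCBIM37. The 10 members and all gene lists were chosen with earlier results of these data known. Named are the members, 5 genes as checks of the labels, from each list up to 4 genes with the highest level or largest log2 difference, and the 5 genes closest to Col1a1, Col3a1, Col4a1 and Sparc. Col4a2, Col5a1, Col5a3, Col6a2, Col6a3, Krt8, Krt18, Mcam, Pdgfra, Slc12a1 and Tagln were added after their values were seen. Some items that the rules select are not reported here.

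The FPKM worth 1 fragment, read as the commonest low product of FPKM and length among coding genes with 1 transcript of 2500 to 8000 bases, gave the depth. Fragments are FPKM times length times depth. Poisson intervals of levels and Clopper-Pearson intervals of ratios, at 95%, cover counting error only and leave out how Cufflinks shares fragments between variants. Cell subsets had 1 library each, so nothing was tested between them. Calculations were tested on simulated data. Software was Python 3.11.15 with pandas 2.3.3, numpy 2.4.6, matplotlib 3.10.9 and scipy 1.17.1.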

Additional observations from a re-analysis of the deposited data

Results flagged for a closer look

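Signal was present in rows of the member genes that have no value in all 3 columns and were left out of the levels. Of 9 such rows, 5 were above 0, in 3 genes. Pdgfrb-002 had 1.44 FPKM in the library labelled CD4, about 567 fragments, and 0.2503 FPKM in M2, about 81 fragments. Sparc-002 had 10.96 FPKM in the library labelled M1 and 16.6 in CD4. A second row of Col1a1-001 had 0.904 FPKM in the library labelled M2. Each was above the FPKM that 3 fragments would give, which was at most 0.0231. No group had the 4 samples needed to look for samples far from the others.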

How the results depend on the processing

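No paired analysis was possible because no cell subset had more than 1 library, and for that reason no replicate could be left out. The number of members highest in the library labelled CD4 was 7, and 8 with all rows of a transcript summed. Of M2 against M1, 1 member was past 2-fold in the report, 0 with all rows summed, 0 with the first row that had a value in any library, 2 with a pseudocount of 0.1, 3 after rescaling each library to a total of 1000000, and 0 without Sparc, the last chosen after seeing the data. With a mean of at least 10 FPKM, which leaves Sparc alone of the members, 0 members were past 2-fold for CD4 against M1 and 0 for M2 against CD4, and the medians became 1.43 for M2 against M1, 0.53 for CD4 against M1 and 0.90 for M2 against CD4. Rescaling to a total gave 5 members for M2 against CD4 (2 higher, 3 lower), beside 3 lower, and 6 higher and 1 lower for CD4 against M1, beside 5 and 0. Of the matrix and fibroblast lists, 23 genes were past 2-fold for M2 against M1 in the report, 35 with a pseudocount of 0.1 (22 higher, 13 lower), 40 rescaled to a total (28 and 12) and 12 with a mean of at least 10 (5 and 7), beside 12 and 11. For CD4 against M1 there were 14 (9 higher, 5 lower), then 23 rescaled to a total (17 and 6) and 3 with a mean of at least 10 (0 and 3), and for M2 against CD4 24 (10 and 14), then 9 with a mean of at least 10 (4 and 5). Rescaling to a total moved the median of all genes to 0.28 for M2 against M1 and 0.27 for M2 against CD4. The minimum was then reached by 9 members, 67 list genes and 13625 genes in all. Of the 13625, 3198 were higher and 1819 lower for M2 against M1. For M2 against CD4 these were 3165 and 1954, and for CD4 against M1 1073 and 1042. With a mean of at least 10 FPKM, 20 list genes and 5721 genes in all were kept. Of the 5721, 596 were higher and 976 lower for M2 against M1. For CD4 against M1 these were 282 and 305, and for M2 against CD4 664 and 1024. The Sparc difference was 0.03 for M2 against M1 and -0.70 for CD4 against M1 with the first row that had a value in any library, and Pdgfrb went from -0.90 to 0.39 for CD4 against M1 with all rows summed. The cause of the other shifts was not tested. Depth limits Lum most, with about 6 and 10 fragments in the libraries labelled M1 and M2.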
